A study of Mus musculus with 18 samples.

Results

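Oxidative phosphorylation is carried out by 5 protein complexes of the inner mitochondrial membrane, and the genes of their nuclear-encoded subunits are described here across 4 groups of mouse mammary tumours. Members were all array features whose gene symbol matched the subunit families Nduf a, b, c, s and v (complex I), Sdh a to d (complex II), Uqcr (complex III), Cox4 to Cox8 (complex IV) and Atp5 (complex V), with features of a symbol averaged. This rule gave 81 genes from 83 features, of 16887 genes and 22575 features in all: 35 genes of complex I, 4 of complex II, 8 of complex III, 17 of complex IV and 17 of complex V. It used names only and no measured value. Each of 18 arrays carried Cy5-labelled RNA of a primary mammary tumour and, as a common reference, Cy3-labelled RNA of whole mice. The tumour samples were labelled Wnt1 (n = 6 arrays), Wnt1_iFGFR1 (n = 4), Wnt1_iFGFR2 (n = 4) and Wnt1_iR2 (n = 4), and the last 3 are called iFGFR1, iFGFR2 and iR2 below. All 4 groups carry Wnt1 in their label, and all sample titles carry the strain name FVB and MMTV, the viral promoter used to drive transgenes in mammary epithelium. The labels do not expand iR2. Age, agents and treatment times stay unstated in the labels and were not used. The series title names FGF receptor signalling together with Wnt-1 in mammary tumours, and each receptor group was compared with Wnt1 for that reason.

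Complexes I and II pass electrons from NADH and succinate to ubiquinone, complex III passes them on to cytochrome c, and complex IV gives them to oxygen. Complexes I, III and IV pump protons while doing so, and complex V, the ATP synthase, lets the protons return and makes ATP. Each complex has a few core subunits that hold the cofactors or the catalytic sites and, apart from complex II, many small supernumerary subunits that serve assembly and stability. Some core subunits of complexes I, III, IV and V are encoded by mitochondrial DNA and were not analysed here.

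Every value below is a log2 ratio of tumour over whole-mouse reference or a difference of 2 group means of such ratios, so levels are relative to a mixture of tissues. Over all genes the array medians ran from -0.023 to 0.009. Luminal mammary epithelial markers (9 genes) averaged between 1.63 and 3.43 on every array, while markers of muscle (15 genes) and adipocytes (8 genes) averaged at most -2.71 and -2.97. The replicate numbers follow accession order, and no label says that arrays came from separate animals, so p-values measure only the variation among the samples at hand, part or all of which may be technical. Some arrays stood apart. Wnt1 replicate 3 correlated over genes at 0.764 to 0.793 with the other Wnt1 arrays, but at 0.832 to 0.857 with the iR2 arrays. It also shared their narrow spread of ratios: the interquartile range over features was 0.79 on Wnt1 replicate 3, 0.769 to 0.845 on the iR2 arrays and 0.874 to 1.23 on all others. In iFGFR2, replicate 2 had the lowest mean of complex I and of complex V (-1.12 and -1.17, against -0.80 to -0.75 and -0.79 to -0.71 on the other 3). Several results that rest on these arrays are given with and without them.

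The subunit genes were low in the tumours relative to the whole-mouse reference. In Wnt1 the median member stood at -0.91, against -0.008 for the median of all genes. Of the 81 members, 56 (69.1%) were below the reference on all 18 arrays, which held for 16.2% of all genes, and 0 were above it on all 18, against 7.17% of all genes. All 4 genes of complex II, which feeds electrons from the citric acid cycle, were below the reference throughout, with a median Wnt1 mean of -1.54. The median Wnt1 mean was -1.14 for complex III, -0.88 for complex IV, -0.83 for complex V and -0.81 for complex I. At the bottom were 3 complex IV isoforms of heart and skeletal muscle: Wnt1 means were -5.70 ± 0.48 (SD, n = 6) for Cox8b, -4.73 ± 0.34 for Cox6a2 and -4.04 ± 0.34 for Cox7a1. At the top was Ndufa11, a membrane-arm subunit of complex I, at 0.44 ± 0.46. Such levels mix the tissues of the reference with those of the tumour, and in bulk RNA fewer cells of a type and less RNA per cell cannot be told apart.

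Averaged over their members, complexes I, III, IV and V were lower on the iR2 arrays than on any Wnt1 array. The mean of the 35 complex I genes was -0.82 ± 0.04 (SD, n = 6) for Wnt1, -0.79 ± 0.13 (n = 4) for iFGFR1, -0.86 ± 0.18 (n = 4) for iFGFR2 and -1.10 ± 0.03 (n = 4) for iR2. The iR2 arrays read -1.13, -1.07, -1.10 and -1.10, and the Wnt1 arrays ran from -0.88 to -0.77, so these groups did not overlap. Complex IV gave -1.42 ± 0.14 (Wnt1), -1.57 ± 0.09 and -1.58 ± 0.08 (iFGFR1 and iFGFR2) and -1.81 ± 0.06 (iR2). Complex V gave -0.87 ± 0.08, -0.78 ± 0.07, -0.86 ± 0.21 and -1.05 ± 0.04 in the same order, and complex III gave -1.07 ± 0.05, -1.01 ± 0.15, -1.17 ± 0.16 and -1.25 ± 0.01. The same held for complexes III, IV and V. Complex II went the other way in its means: -1.60 ± 0.15 in Wnt1 and -1.23 ± 0.15, -1.39 ± 0.14 and -1.38 ± 0.05 in iFGFR1, iFGFR2 and iR2. Its arrays overlapped: Wnt1 replicate 3, at -1.34, lay within the range of each receptor group (-1.44 to -1.07, -1.55 to -1.21 and -1.45 to -1.34). The median difference of its genes in iR2 was -0.019 from that array and 0.15 from the other 5 Wnt1 arrays. These means and medians describe the lists and carry no test.

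**Figure D1:**
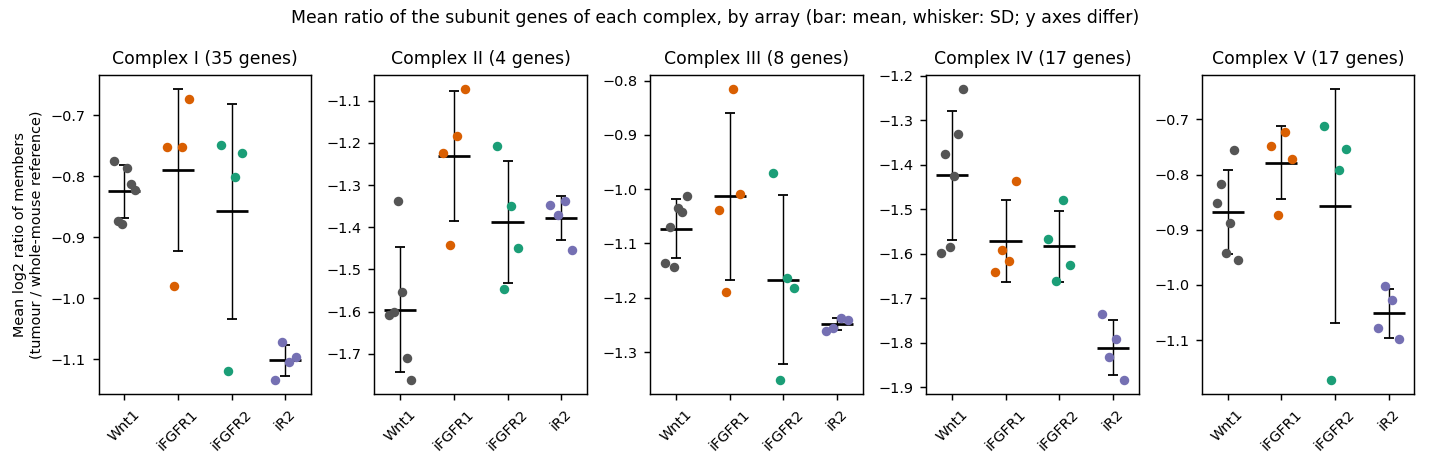
Mean log2 ratio (tumour over whole-mouse reference) of the subunit genes of each complex on each of the 18 arrays, with 1 panel per complex and 1 point per array; bars are group means and whiskers the SD. The 4 iR2 arrays lie below all 6 Wnt1 arrays for complexes I, III, IV and V, and iFGFR2 replicate 2 is the low point of its group in complexes I and V.

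The median difference from Wnt1 over the members of a complex summarised the same pattern. In iFGFR1 it was 0.02 for complex I, 0.34 for complex II, 0.09 for complex III, -0.13 for complex IV and -0.0069 for complex V. In iFGFR2 it was 0.05, 0.22, -0.09, -0.13 and -0.06, and in iR2 -0.30, 0.15, -0.29, -0.41 and -0.08. Over all genes the median difference was 0.02, 0.0095 and -0.05 in these 3 comparisons. Arrays differ in spread, and scaling each to the same median absolute deviation turned the sign for complex V in iFGFR1 (0.091), for complexes III (0.060), IV (0.060) and V (0.020) in iFGFR2 and for complex II in iR2 (-0.034). Leaving out 1 array turned others. In iFGFR2, complex V was 0.21 without replicate 2, complex III was 0.016 without replicate 4, and complex I was 0.14 without replicate 2 but -0.028, -0.041 and -0.074 without replicates 1, 3 and 4 and -0.010 without Wnt1 replicate 1. In iFGFR1, complex IV was 0.0092 without replicate 1 and complex III was -0.0052 without replicate 3, and complexes I and V took either sign with single arrays left out. In iR2 no omission of 1 array turned the sign of a complex. The 3 comparisons share the Wnt1 arrays, so their values stand side by side here and are not independent.

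Cox5a and Uqcr10 were the 2 members that passed the test in all 3 receptor groups, and both were lower than in Wnt1. Cox5a is a nuclear-encoded subunit of cytochrome c oxidase on its matrix side. Its 6 Wnt1 ratios ran from -1.74 to -1.01 with a median of -1.34. The iFGFR1 arrays gave -2.05, -1.94, -2.05 and -2.08, the iFGFR2 arrays -3.31, -2.11, -2.07 and -2.62, and the iR2 arrays -2.06, -2.17, -2.13 and -1.96. All 12 receptor arrays therefore lay below the lowest Wnt1 array, which was replicate 3. The differences were -0.68 (SE 0.21, adjusted p = 0.0328, limma) for iFGFR1, -1.17 (SE 0.21, adjusted p = 0.00633) for iFGFR2 and -0.73 (SE 0.21, adjusted p = 0.0393) for iR2. Uqcr10 encodes a small transmembrane subunit of complex III. It ran from -1.13 to -0.54 in Wnt1 and was -1.41, -1.43, -1.39 and -1.32 in iFGFR1, -1.91, -1.57, -1.40 and -1.93 in iFGFR2 and -1.40, -1.70, -1.46 and -1.43 in iR2. Again the Wnt1 and receptor arrays did not overlap. The differences were -0.59 (SE 0.16, adjusted p = 0.0173), -0.91 (SE 0.16, adjusted p = 0.00623) and -0.70 (SE 0.16, adjusted p = 0.0144). Of 27 alternatives (arrays left out, other scalings and other fits), 26, 27 and 23 kept the calls of Uqcr10 in this order. For Cox5a 20, 27 and 15 did. Its call in iR2 was lost with any single iR2 array left out. The share of all genes called in all 3 comparisons was not counted.

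With the 3 receptor groups averaged, 22 members (27.2%) passed an adjusted p of 0.05 against Wnt1, where 12.5% of all genes did. Of these, 8 were higher (9.88%, against 6.9% of all genes) and 14 lower (17.3%, against 5.62%). The higher ones were Atp5b (1.13) and Atp5c1 (0.79), the beta and gamma subunits of the ATP synthase head, Ndufa10 (0.99), Ndufv3 (0.64), Ndufa9 (0.63) and Ndufv2 (0.49) of complex I, Uqcrc2 (0.51), a core protein of complex III, and Atp5a1 (0.51), the alpha subunit of the head. The lower ones with the largest differences were Ndufc1 (-0.96), Ndufa11 (-0.94), Cox5a (-0.86), Uqcr10 (-0.73), Atp5k (-0.73), Atp5l (-0.72), Ndufa4 (-0.63) and Atp5mpl (-0.62). Only for Cox5a and Uqcr10 did the 12 receptor arrays and the 6 Wnt1 arrays not overlap, 2.47% of the members against 0.841% of all genes. The count of 22 fell to 14 without Wnt1 replicate 2, without Wnt1 replicate 4 or without iR2 replicate 3, to 12 without Wnt1 replicate 6 and to 11 without Wnt1 replicate 5. It rose to 28 without Wnt1 replicate 3. Over all 4 groups, the F test called 20 members (24.7%) and 19.6% of all genes, and it called 31 members without iFGFR2 replicate 2. The shares of all genes with these omissions were not counted.

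**Figure D2:**
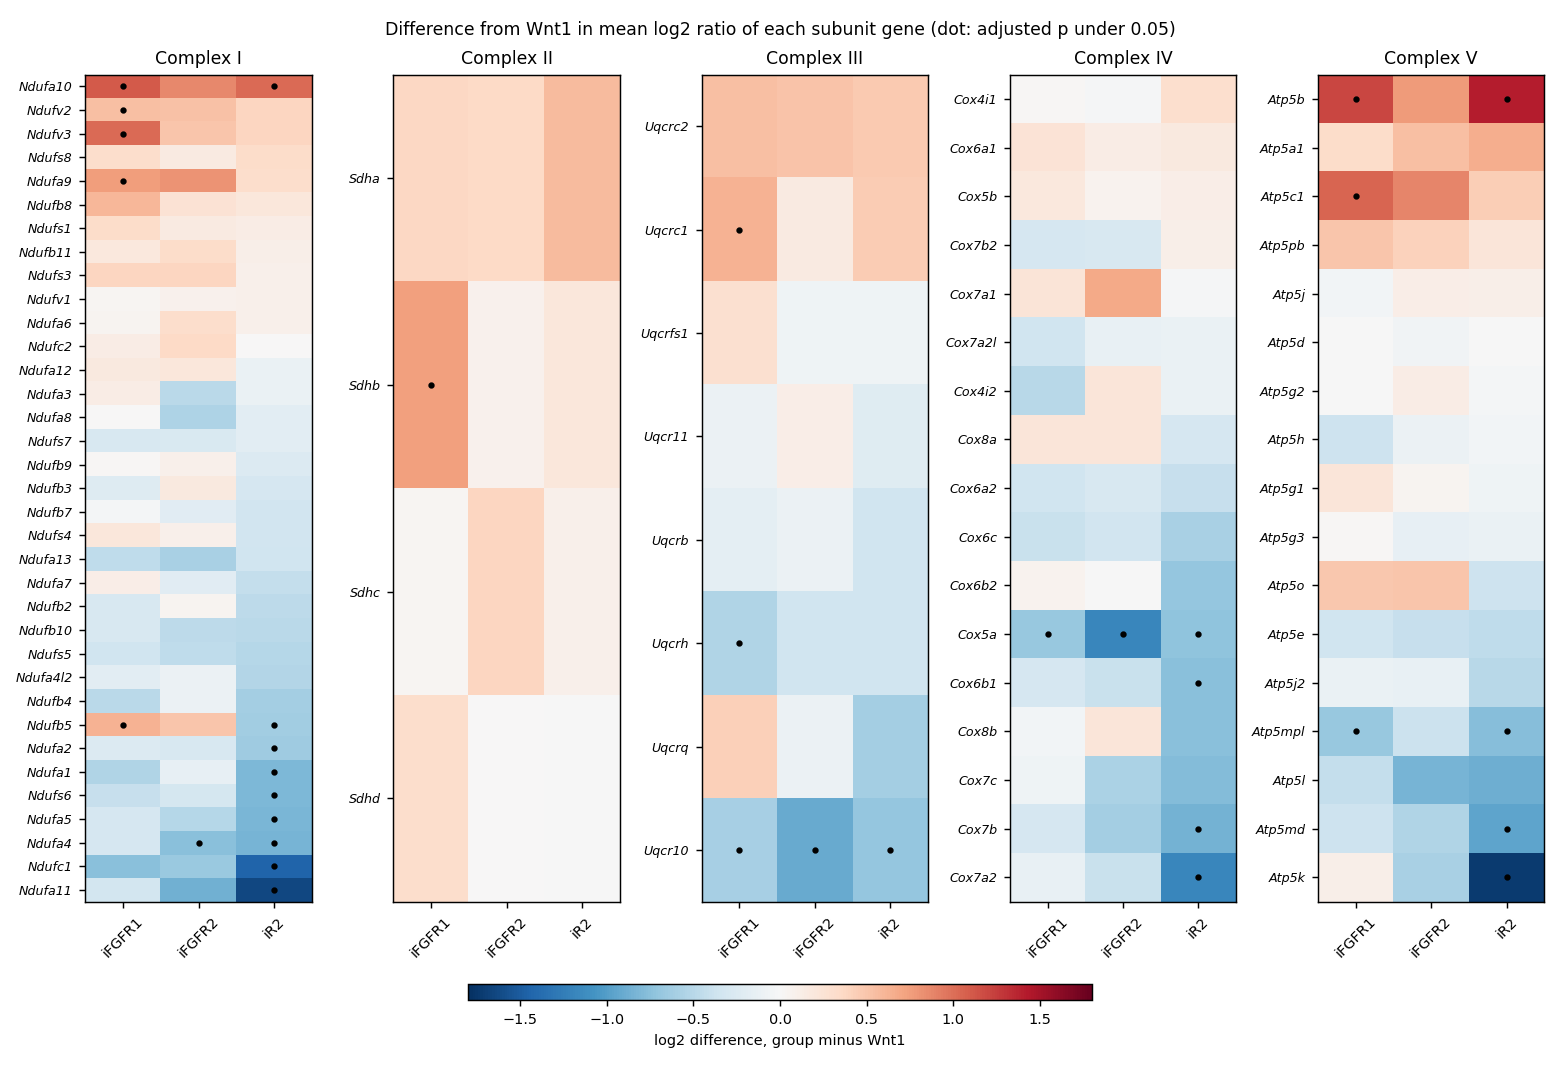
Difference from Wnt1 in mean log2 ratio for each of the 81 subunit genes (rows, by complex) in iFGFR1, iFGFR2 and iR2 (columns), from blue (lower) to red (higher); dots mark an adjusted p under 0.05. The iR2 column holds the most dots, 18, of which 16 are on blue cells, while 9 of the 13 dots of iFGFR1 are on red cells.

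In iFGFR1, 13 members passed the test, 9 higher and 4 lower. That is 16% of the members, next to 15.4% of all genes called, so the count does not set the members apart. By direction, 11.1% of the members were higher, against 8.38% of all genes, and 4.94% lower, against 7.06%. Called genes fell into all 5 complexes: 5 in complex I, 1 in complex II, 3 in complex III, 1 in complex IV and 3 in complex V.

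Atp5b, the catalytic beta subunit of ATP synthase, showed the largest rise. Its Wnt1 ratios had a minimum of -2.92, a median of -1.79 and a maximum of -0.82, the last on replicate 3. The iFGFR1 arrays read -0.006, -1.06, -0.71 and -0.62, so 3 of 4 lay above every Wnt1 array and the ranges overlapped. The difference was 1.20 (SE 0.29, 2.30-fold, adjusted p = 0.0078). Atp5c1, the gamma subunit that turns inside the head, went from between -1.38 and -0.60 (median -0.88) to 0.19, -0.47, 0.23 and 0.37 without overlap, a difference of 1.04 (SE 0.26, adjusted p = 0.0114). Ndufv3, a small subunit of the NADH-binding module of complex I, had the smallest adjusted p. It rose from between -1.32 and -0.77 (median -1.05) to 0.03, -0.30, 0.03 and 0.17, by 1.03 (SE 0.16, 2.04-fold, adjusted p = 0.000352). No iFGFR1 array came down to a Wnt1 array for that gene.

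Ndufa10, a supernumerary subunit of complex I, was 1.10 higher (SE 0.29, adjusted p = 0.0135), with 3 of 4 arrays above every Wnt1 array. Ndufa9, which lies near the ubiquinone site, was 0.76 higher (SE 0.24, adjusted p = 0.0378), and Ndufv2, an iron-sulphur subunit that receives electrons from NADH, 0.55 higher (SE 0.18, adjusted p = 0.0423). Sdhb, the iron-sulphur subunit of succinate dehydrogenase, read -1.44, -1.75, -1.80 and -1.25 against -2.65 to -2.02 in Wnt1 (median -2.30). The groups did not overlap, and the difference was 0.73 (SE 0.18, adjusted p = 0.0105). The other complex II genes did not pass the test: Sdha differed by 0.37, Sdhd by 0.31 and Sdhc by 0.04. Uqcrc1, a core protein of complex III, was 0.63 higher (SE 0.19, adjusted p = 0.0308), while Uqcrc2 differed by 0.55 (adjusted p = 0.0722) and the Rieske iron-sulphur protein Uqcrfs1 by 0.29 (adjusted p = 0.408). Ndufb5, a membrane-arm subunit of complex I, was 0.63 higher (SE 0.18, adjusted p = 0.0258).

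Besides Cox5a and Uqcr10, Atp5mpl, a small proteolipid of ATP synthase, fell by 0.68 (SE 0.21, adjusted p = 0.034) and Uqcrh, the hinge protein near cytochrome c1, fell by 0.54 (SE 0.18, adjusted p = 0.0489). Within complex I the differences ran from -0.75 (Ndufc1) to 1.10 (Ndufa10), in complex IV from -0.68 (Cox5a) to 0.25 (Cox6a1) and in complex V from -0.68 (Atp5mpl) to 1.20 (Atp5b). The calls of Atp5b, Atp5c1, Ndufv3 and Sdhb held under each of 27 alternatives, with each array left out, other scalings and other fits. The 4 lower calls did not: 0 members were lower (5.89% of all genes), and 10 higher, after arrays were scaled to the same median absolute deviation. The total of 13 became 5 without iFGFR1 replicate 1, 6 without Wnt1 replicate 5, 8 without Wnt1 replicate 6 and 8 without iFGFR1 replicate 3. Of all genes, 10.4%, 12.2%, 11.4% and 10.4% were called with these omissions, in that order.

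In iFGFR2, 3 members passed the test (3.7%, against 3.43% of all genes), and all 3 were lower, as 1.46% of all genes were: Cox5a, Uqcr10 and Ndufa4. Ndufa4 was first assigned to complex I and is now regarded as a subunit of cytochrome c oxidase. It ran from -1.01 to -0.35 in Wnt1 (median -0.54) and was -1.54, -1.48, -1.25 and -1.23 in iFGFR2. The groups did not overlap, and the difference was -0.75 (SE 0.20, adjusted p = 0.0435). At an unadjusted p under 0.05 there were 27 members. The share of all genes at that cut was not counted, so this count does not set the members apart. The widest differences were 0.88 for Atp5c1 (adjusted p = 0.0645) and -0.84 for Atp5l, subunit g of ATP synthase, in complex V, 0.86 for Ndufa10 and -0.87 for Ndufa11 in complex I, 0.68 for Cox7a1 in complex IV and 0.51 for Uqcrc2 in complex III. Complex II ran from 0.0097 (Sdhd) to 0.38 (Sdhc). Without Wnt1 replicate 3, 14 members passed (6 higher, 8 lower) and 8.37% of all genes. Without iFGFR2 replicate 2, 10 passed (5 in each direction) and 8.7% of all genes.

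In iR2, 16 members fell, in all complexes but II, and 2 rose. The test thus called 18 members (22.2%), next to 7.1% of all genes. Of these, 16 were lower (19.8%, against 3.19% of all genes) and 2 higher (2.47%, against 3.91%). By complex, the lower genes numbered 8 of 35 in complex I, 1 of 8 in complex III, 4 of 17 in complex IV, 3 of 17 in complex V and 0 of 4 in complex II. Ndufa4 was counted in complex I by its name. Arrays of iR2 and Wnt1 did not overlap for 23 members (28.4%, against 13.6% of all genes), and 21 of them were lower (25.9%, against 7.35%).

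Atp5k, subunit e of ATP synthase, showed the largest difference. It is a small membrane protein that takes part in pairing the enzyme into dimers. Its Wnt1 ratios were between -1.64 (replicate 3) and -0.007, with a median of -0.51. The iR2 arrays read -2.43, -2.11, -2.54 and -2.13, all below every Wnt1 array. The difference was -1.72 (SE 0.24, 3.29-fold lower, adjusted p = 0.000887). Ndufa11, which lies in the membrane arm of complex I and was above the reference in most Wnt1 arrays (-0.42 on replicate 3, otherwise 0.33 to 0.87), read -1.25, -1.11, -1.39 and -1.02. The difference was -1.63 (SE 0.28, 3.10-fold lower, adjusted p = 0.00312), again without overlap. Ndufc1, another membrane-arm subunit, lay between -1.56 and 0.17 in Wnt1 and read -2.02, -1.71, -1.91 and -1.72, a difference of -1.44 (SE 0.29, adjusted p = 0.00799).

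Cox7a2, the widely expressed isoform of complex IV subunit 7a, ran from -1.19 to -0.06 in Wnt1 and read -1.89, -1.63, -1.83 and -1.69 in iR2. It did not overlap and differed by -1.17 (SE 0.26, adjusted p = 0.0126). Its neighbour in the complex, Cox7b, differed by -0.85 (SE 0.19, adjusted p = 0.014). Atp5md, a small subunit of the synthase dimer, differed by -0.95 (SE 0.27, adjusted p = 0.0391), Ndufa4 by -0.84 (SE 0.20, adjusted p = 0.0175) and Ndufa5, of the matrix arm of complex I, by -0.82 (SE 0.23, adjusted p = 0.0331). The other 8 lower genes, Cox5a and Uqcr10 among them, differed by -0.81 to -0.63.

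The 2 higher genes were Atp5b and Ndufa10. Atp5b read -0.12, -0.53, -0.32 and -0.59, above all Wnt1 arrays, and rose by 1.41 (SE 0.29, 2.65-fold, adjusted p = 0.00783). Ndufa10 read -1.05, -1.23, -1.03 and -1.47 against -2.51 to -1.75, and rose by 1.02 (SE 0.29, adjusted p = 0.0362). The alpha subunit Atp5a1 differed by 0.66 (adjusted p = 0.0624), Sdha by 0.57 (adjusted p = 0.138), Uqcrc2 by 0.47 (adjusted p = 0.158) and Cox4i1, a large subunit of complex IV, by 0.31 (adjusted p = 0.419). Sdhd, the low end of complex II, had a difference of -0.00033.

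Wnt1 replicate 3 lay toward iR2 for the lower genes. It was the lowest of the 6 Wnt1 arrays for 9 of these 16, against 20 of the 81 members and 3805 of 16887 genes. All 4 iR2 arrays lay below it for 44 of the 81 members and 5872 of 16887 genes. The 16 were chosen for being lower than a Wnt1 mean that includes it, so the values that follow describe them only. The median difference over the 16 was -0.53 from replicate 3 and -0.87 from the other 5 Wnt1 arrays, against -0.04 and -0.05 over all genes. Without replicate 3 the test called 22 members (18 lower) and 11.2% of all genes. With replicate 3 and the iR2 arrays as a batch of narrow spread, which leaves replicate 3 as the only Wnt1 array set against iR2, 0 members and 1.8% of all genes passed. The number in the sample titles is higher on every iR2 array than on any other. With it as a covariate, 1 member (Atp5b, higher) and 0.308% of all genes passed, so the iR2 group and whatever the number stands for cannot be told apart. Each iR2 array also carried weight: the count of 18 was 6, 7, 5 and 11 without iR2 replicate 1, 2, 3 and 4, 10 without Wnt1 replicate 5 and 11 without Wnt1 replicate 6. Of all genes, 1.98%, 2.3%, 1.79% and 5.31% were called in the 4 iR2 omissions, and 4.62% and 4.08% in the Wnt1 ones. The calls of Atp5k, Ndufa11 and Ndufc1 held with every single array left out. Scaling arrays to the same median absolute deviation gave 27 lower (33.3%, against 9.63% of all genes) and 1 higher. Quantile normalization gave 9 lower (11.1%, against 2.53% of all genes) and 2 higher.

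**Figure D3:**
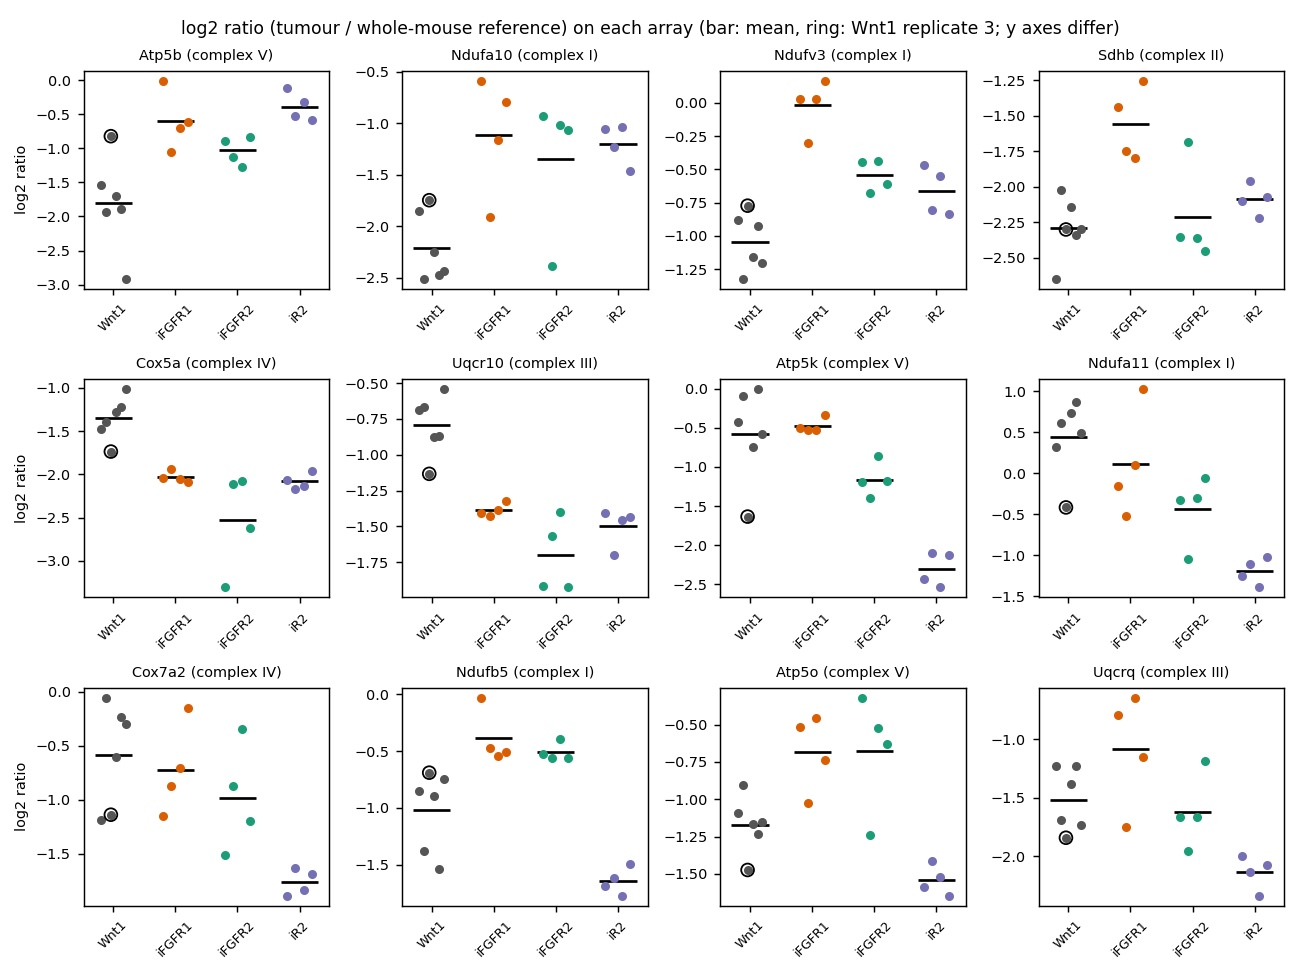
Log2 ratio (tumour over whole-mouse reference) on each of the 18 arrays for 12 subunit genes, with 1 panel per gene; bars are group means and a ring marks Wnt1 replicate 3. Cox5a and Uqcr10 are lower on all 12 receptor arrays than on any Wnt1 array, and Atp5k is lower on the 4 iR2 arrays than on any other.

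The sequences before the start sites of Atp5k, Ndufa11, Cox6b1 and Atp5b are shown because the first 3 were lower in iR2 and Atp5b was higher. Cox6b1 (-0.75 in iR2) was picked after its values were seen, as an example of an ETS match. Ndufc1, which fell further in iR2, is not shown and has no NRF1 or ETS match in its promoter. The genes shown therefore do not tell how motifs and direction go together. Each sequence is the 250 bases before the start of the gene in its own direction, from RefSeq on GRCm38.p6. Atp5k is at chr5:108434400-108434649 (minus strand), Ndufa11 at chr17:56717512-56717761 (plus), Cox6b1 at chr7:30626115-30626364 (minus) and Atp5b at chr10:128083057-128083306 (plus). Capitals mark a match to the NRF1 motif in Atp5k and Ndufa11, whose letters are the run in capitals, and to the reverse complement of the ETS and GABP core CCGGAAG in Cox6b1. NRF1 and GABP are known regulators of nuclear genes for mitochondrial proteins.
Atp5k: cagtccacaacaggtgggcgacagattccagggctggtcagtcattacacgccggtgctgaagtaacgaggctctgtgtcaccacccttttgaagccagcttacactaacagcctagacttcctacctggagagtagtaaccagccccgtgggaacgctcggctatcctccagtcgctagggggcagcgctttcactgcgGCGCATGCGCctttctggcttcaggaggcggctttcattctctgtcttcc
Ndufa11: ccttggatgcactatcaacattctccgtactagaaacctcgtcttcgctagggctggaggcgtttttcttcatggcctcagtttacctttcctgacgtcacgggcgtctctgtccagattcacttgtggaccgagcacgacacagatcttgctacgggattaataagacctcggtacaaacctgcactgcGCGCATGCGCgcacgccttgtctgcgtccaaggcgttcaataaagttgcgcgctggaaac
Cox6b1: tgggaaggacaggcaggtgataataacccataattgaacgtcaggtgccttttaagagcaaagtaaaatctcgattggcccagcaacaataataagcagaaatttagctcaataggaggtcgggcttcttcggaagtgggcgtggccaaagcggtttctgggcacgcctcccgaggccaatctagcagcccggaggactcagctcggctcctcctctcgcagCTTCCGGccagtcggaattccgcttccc
Atp5b: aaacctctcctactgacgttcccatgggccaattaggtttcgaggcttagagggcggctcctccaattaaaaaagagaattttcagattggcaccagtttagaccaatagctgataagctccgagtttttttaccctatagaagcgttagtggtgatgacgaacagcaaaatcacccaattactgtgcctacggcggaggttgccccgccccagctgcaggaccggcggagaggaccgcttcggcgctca
The match lies 50 to 41 bases before the start in Atp5k, 60 to 51 in Ndufa11 and 28 to 22 in Cox6b1. Atp5k also has a match to the ETS and GABP core, in the 50 bases after its start, which are not shown. Atp5b has no match to the NRF1, ETS, YY1 or ERR motifs in this window.

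A promoter of 300 bases (250 before and 50 after the start) was found for 67 of the 81 members, and motifs were searched on both strands. The NRF1 motif was in 5 of the 67 (7.46%), against 1.59% of 13369 promoters of genes on the array and 0.977% of 27025 promoters in all. The 5 were Atp5g2, Atp5k, Cox6a1, Ndufa11 and Uqcrc1. CCGGAAG was in 15 (22.4%, against 13.6% and 9.12%). The YY1 motif AAGATGGC was in 9 (13.4%, against 3.58% and 2.88%), 7 of them in complex I. The ERR motif TCAAGGTCA was in 2 (2.99%, against 0.262% and 0.407%) and the HIF core ACGTG in 17 (25.4%, against 22.7% and 19.7%). Among the 14 matched genes lower in iR2, 2 held the NRF1 motif, 3 CCGGAAG, 2 the YY1 motif, 0 the ERR motif and 2 the HIF core. Among the 9 higher in iFGFR1, the counts were 1, 1, 1, 0 and 1. No searched motif is contained in another, and such matches describe the window only.

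Between receptor groups, the members that passed the test were lower in iR2. The test of iFGFR2 against iFGFR1 called 0 members and 2.13% of all genes. At an unadjusted p under 0.05 there were 9 members, with the share of all genes at that cut not counted. Against iFGFR1, iR2 was lower for 7 members (8.64%), where 11.7% of all genes were called and 6.84% were lower. This count does not set the members apart. The 7 were Atp5k (-1.83, SE 0.26, adjusted p = 0.000269), Ndufa11 (-1.31), Ndufb5 (-1.25), Uqcrq (-1.05), Cox7a2 (-1.04), Atp5o (-0.86) and Ndufv3 (-0.64). Against iFGFR2, iR2 was lower for 3 members (3.7%, against 1.34% of all genes called and 1.07% lower): Atp5k (-1.14), Ndufb5 (-1.13) and Atp5o (-0.86). That last count was 1 without iFGFR2 replicate 1, 3 or 4 or without iR2 replicate 1, 3 or 4, and 0 without iR2 replicate 2. The shares of all genes with these omissions were not counted.

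Ndufb5 was called higher in iFGFR1 and lower in iR2, and the second call was the less stable. In Wnt1 it ran from -1.54 to -0.69 with a median of -0.87. The iFGFR1 arrays read -0.03, -0.47, -0.54 and -0.51, above all of these, and the iFGFR2 arrays were similar at -0.53, -0.56, -0.40 and -0.56. The iR2 arrays read -1.68, -1.62, -1.77 and -1.49, of which 3 were below every Wnt1 array. It was thus 0.63 higher in iFGFR1 and differed by -0.63 (adjusted p = 0.0433) in iR2, and iR2 and iFGFR1 differed by -1.25 (SE 0.20, adjusted p = 0.000574). The call in iR2 against Wnt1 was kept in 14 of 27 alternatives: it was lost with any 1 of the 4 iR2 arrays left out (adjusted p = 0.0631 to 0.144 by limma) and with the title number as covariate (0.732). The call in iFGFR1 was kept in 23 of the 27 and that between iR2 and iFGFR1 in 26. Atp5o, the stalk subunit that holds the head in place, behaved alike without passing against Wnt1: the Wnt1 mean was -1.17, both iFGFR means were -0.68 and the iR2 mean was -1.54. Uqcrq, a small complex III subunit, averaged -1.52, -1.08, -1.62 and -2.13 in Wnt1 and the 3 receptor groups in order.

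The members were also sorted by place in the complex. This sorting was made after the values were seen and is a description without a test. Of the 6 measured core subunits of complex I, 5 differed upward in each receptor group, with medians of 0.32, 0.16 and 0.11 in iFGFR1, iFGFR2 and iR2. Ndufs7 was the exception, at -0.29, -0.28 and -0.19, and of these Ndufv2 in iFGFR1 was the only one called. In iR2 the signs of Ndufs1, Ndufs3 and Ndufv1 (0.13, 0.09 and 0.09) turned when arrays were scaled to the same median absolute deviation. Of the 29 supernumerary subunits of complex I, 22 differed downward in iR2, with a median of -0.35, 8 called lower and 1 higher. The 29 were taken by name and include Ndufa4l2 and Ndufa4. The latter is among the 8, although it is now regarded as a subunit of complex IV. In iFGFR1 15 of the 29 differed downward, with 4 called higher and 0 lower.

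In complex V, the 5 subunits of the F1 head had medians of 0.33, 0.54 and 0.45 in iFGFR1, iFGFR2 and iR2. The alpha, beta and gamma subunits differed upward in each group, while the other 2 did not: the epsilon subunit Atp5e differed by -0.36, -0.41 and -0.46, with iR2 below all Wnt1 arrays, and the delta subunit Atp5d by -0.010, -0.062 and -0.0068. Neither of these passed the test. The 5 small membrane subunits (Atp5j2, Atp5k, Atp5l, Atp5md and Atp5mpl) had medians of -0.37, -0.54 and -0.88. All 5 of the latter differed downward in iFGFR2 and in iR2, and 3 were called lower in iR2. The stalk lay at 0.22, 0.27 and 0.03 and the c-ring, the rotor in the membrane, at 0.03, 0.05 and -0.08. The 3 core and Rieske proteins of complex III had medians of 0.55, 0.17 and 0.46, and its 5 small subunits -0.18, -0.11 and -0.36. The 11 general subunits of complex IV had medians of -0.13, -0.35 and -0.58, with 4 called lower in iR2, although Cox4i1 and Cox5b among them differed by 0.31 and 0.11. The tissue-restricted isoforms Cox4i2, Cox6a2, Cox6b2, Cox7a1, Cox7b2, Cox8b and Ndufa4l2 were called in no receptor group against Wnt1, with adjusted p between 0.0704 and 0.986.

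**Figure D4:**
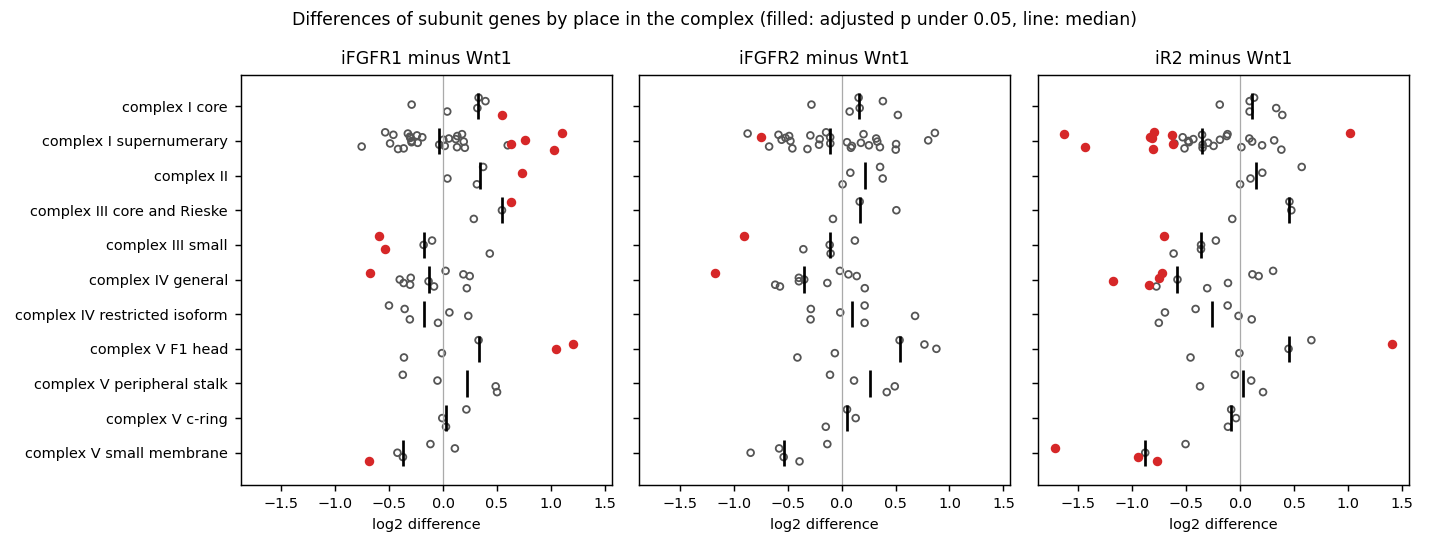
Difference from Wnt1 in mean log2 ratio of the subunit genes, grouped by place in the complex (rows), in iFGFR1, iFGFR2 and iR2 (panels); filled points have an adjusted p under 0.05 and vertical lines are group medians. The small membrane subunits of complex V lie at medians of -0.37, -0.54 and -0.88, and its F1 head at 0.33, 0.54 and 0.45.

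Members tracked each other weakly once the group means were taken out. Over the 18 arrays the median correlation of residuals between 2 members was 0.08, against -0.0023 between members and other genes, and within complexes it ran from -0.06 (complex II) to 0.11 (complex V). Points share the arrays and their spread. Only Atp5pb and Ndufs6 had 2 features, which correlated at 0.28 and 0.56 over the 18 arrays. The 2 features of Ndufs6 differed in iR2 by -0.89 and -0.73, and those of Atp5pb by 0.22 and 0.21. They were further apart in other groups. Those of Atp5pb differed by 0.30 and 0.71 in iFGFR1 and by 0.25 and 0.59 in iFGFR2. Those of Ndufs6 differed by -0.49 and -0.34 in iFGFR1 and by -0.54 and -0.095 in iFGFR2. The genes outside the set whose pattern over the 18 arrays was most like the mean of the 27 members called in any comparison of 2 groups were H4c4 (r = 0.933), Cd5 (0.877), Pga5 (0.877), 4930463O16Rik (0.866) and H4c14 (0.862).

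Of the other mitochondrial lists, 3 had every iR2 array below every Wnt1 array in their mean, as complexes I, III, IV and V had. The mean of assembly factors ran from -0.52 to -0.45 in iR2 and from -0.40 to -0.22 in Wnt1, that of protein import genes from -0.34 to -0.24 and from -0.18 to 0.048, and that of mitochondrial ribosomal protein genes from -0.30 to -0.27 and from -0.23 to -0.17. Regulators of mitochondrial gene expression went the other way without overlap, from 0.11 to 0.20 in iR2 and from -0.18 to -0.10 in Wnt1. The mean of citric acid cycle and pyruvate dehydrogenase genes ran from -1.08 to -0.95 in iR2 and from -1.48 to -1.06 in Wnt1, with overlap. For the counts of all lists and markers below, 8.38% of all genes were higher and 7.06% lower in iFGFR1. In iFGFR2 3.43% were called and 1.46% lower, and in iR2 3.91% were higher and 3.19% lower. A list whose share called lies near these is not set apart by its count. In the citric acid cycle and pyruvate dehydrogenase list (17 measured), 7 were higher and 1 lower in iFGFR1, 1 and 1 in iFGFR2 and 5 and 0 in iR2, with median differences of 0.26, 0.20 and 0.28. Suclg2, a succinyl-CoA ligase subunit, was higher in all 3 groups (1.70, 1.45 and 2.12), and Pdha1, of pyruvate dehydrogenase, in iFGFR1 (1.21) and iR2 (1.02). Assembly factors (37 measured of 46) gave 1 higher and 4 lower, 2 and 2, and 1 and 5, with medians of -0.01, -0.07 and -0.13. Ndufaf4, which helps build complex I, was lower in all 3 (-0.83, -0.88 and -0.93), and Cox14 (-1.30) and Cox16 (-0.99), which help build complex IV, were lower in iR2. Regulators of mitochondrial gene expression (20 genes) gave 2 higher and 1 lower, 1 and 0, and 4 and 0, with medians of -0.16, -0.03 and 0.16. The coactivator Ppargc1a was higher in all 3 (0.96, 1.31 and 1.21), and Gabpa, which binds the ETS core, in iFGFR1 (1.63) and iR2 (1.22).

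Mitochondrial ribosomal protein genes (75) gave 11 higher and 5 lower in iFGFR1, 1 and 2 in iFGFR2, and 2 and 3 in iR2, with medians of 0.08, 0.06 and -0.12. Of the cytosolic ribosomal protein genes (68), 26 were higher and 3 lower in iR2 with a median of 0.47, and the higher ones included Rplp0 (1.59) and Rps14 (1.39). In iFGFR1 1 was higher and 3 lower (median -0.04), and in iFGFR2 0 were called (median 0.06). Glycolysis and hypoxia-response genes (25 measured) gave 15 higher and 1 lower in iFGFR1 with a median of 0.87. Those with the smallest p were Car9 (1.46), Pdk4 (1.83) and Bnip3 (1.78), and the largest difference was that of Egln3 (2.09), named after its value was seen. They gave 1 higher and 1 lower in iFGFR2 (median 0.10) and 1 and 0 in iR2 (median -0.02). Protein import genes (23) gave 4 higher in iFGFR1, 0 called in iFGFR2 and 3 lower in iR2 (medians 0.10, 0.03 and -0.16). Mobile carriers and transporters (21) gave 3, 0 and 1 higher and 0 lower (0.13, -0.16 and -0.02), and 0 of 2 uncoupling genes were called (-0.08, -0.05 and -0.22). The carrier list also named Cyc1 of complex III and Ndufab1 of complex I, subunits whose symbols the name rule does not match.

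Cell type markers moved in the same comparisons, and their counts stand beside the same shares of all genes. Of 10 fibroblast markers, 7 were lower in iFGFR1, 1 in iFGFR2 and 1 in iR2, and their mean ran from -2.30 to -1.06 over the Wnt1 arrays, -3.65 to -2.80 in iFGFR1, -2.94 to -2.46 in iFGFR2 and -2.50 to -2.32 in iR2. Of 9 luminal markers, 4, 1 and 2 were higher, with mean ranges of 1.63 to 3.08, 2.54 to 3.43, 2.35 to 2.85 and 2.87 to 2.95. Of 7 basal markers, 1 was higher and 3 lower in iFGFR1, 0 were called in iFGFR2 and 1 was higher in iR2. Proliferation genes (7) gave 4, 1 and 1 higher. T and NK cell markers (6) gave 1 higher in iFGFR1, 0 in iFGFR2 and 3 lower in iR2. Muscle markers (15) gave 2 higher and 1 lower in iFGFR1 and 0 elsewhere, brown fat genes (6) gave 2 and 1 higher and then 1 each way, and 1 of 8 macrophage and 1 of 4 erythroid markers were lower in iFGFR1 only among the 3 comparisons. Adipocyte (8) and endothelial (6) markers had 0 calls in any of the 3. The part of these shifts in the differences of the subunit genes was not tested.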

How the data were processed

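RNA of 18 primary mouse mammary tumours in 4 groups was measured against a whole-mouse reference on arrays with 2 colours. Tumour RNA was extracted with a column kit and reference RNA with TRIZOL, per the labels' protocols. The authors deposited a table of log ratios for 22575 features, read here as log2, with no empty cell and values from -9.03 to 7.57. The log base and direction are not stated: base 2 was assumed for every fold, and the direction, tumour over reference, was taken from the dyes in the labels. For the scanner, background correction and normalization nothing is stated in the sources used here, and no dye swap was labelled. The number of arrays limits the precision.

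Symbols came from the platform annotation: 18658 features had 1, 30 had several (0 of these matched the subunit names) and 3887 had none. Features of a symbol were averaged into 16887 genes, all tested without a filter on low values, the 81 members included. The group comparisons used lmFit and eBayes of limma (version 3.58.1, R version 4.3.3) on all 18 arrays of 4 groups in 1 fit, with Benjamini-Hochberg adjustment over all genes and a threshold of 0.05, and every adjusted p is from such a fit. On simulated data, with 50 changed genes per size among 16887, the test recovered 52%, 52% and 50% of log2 changes of 1 in iFGFR1, iFGFR2 and iR2 against Wnt1, and 92%, 100% and 98% of changes of 2. Alternatives were centring, quantile normalization, scaling to the same median absolute deviation, array weights, a robust prior, the title number as covariate, the feature of highest variance, only the arrays compared, each array left out, and Ndufa4 with Ndufa4l2 placed in complex IV. A batch term for arrays of narrow spread (interquartile range under 0.85) and counts by direction were added after seeing the data. For iFGFR1 and iFGFR2 against Wnt1, this batch term gives the same result as leaving out Wnt1 replicate 3. It is counted as an alternative there but is not a separate one.

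The members and lists were chosen with earlier results of these data known. Genes named with values were core subunits, restricted isoforms, members past the threshold (up to 8 each way by size), the extremes of each complex, up to 3 called genes of a list and the 5 genes most like the called members. Besides the subunits, lists covered assembly factors, regulators of mitochondrial gene expression, mitochondrial and cytosolic ribosomes, the citric acid cycle, carriers, protein import, glycolysis with hypoxia response, uncoupling, and markers of muscle, adipocytes, brown fat, fibroblasts, macrophages, T and NK cells, endothelium, erythroid, luminal and basal cells and proliferation. Promoters were those of RefSeq on GRCm38.p6, matched by Entrez identifier; the array table names no genome build.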

Additional observations from a re-analysis of the deposited data

Results flagged for a closer look

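Among 204 groups of 4 to 6 arrays examined, a gene or complex mean in 16 had 1 array far from the rest, and chance marks about 1 group in 20. Of these, 8 fell on iFGFR2 replicate 2. That array was far from its group in the means of complex I (-1.12) and complex V (-1.17) and in Ndufa10 (-2.39), Ndufa9 (-1.48), Ndufv1 (-1.76), Sdhc (-1.08), Uqcrc2 (-1.43) and, as the highest array, Sdhb (-1.68). In iFGFR1, replicate 4 was the highest for Atp5k (-0.34) and Ndufa4l2 (0.065), and replicate 1 was the highest for Ndufb5 (-0.03) and the lowest for Uqcrh (-1.31). In Wnt1, replicate 3 was the lowest for Atp5md (-1.38) and the highest for Sdha (-0.76), and replicate 6 the lowest for Ndufs1 (-2.13). Replicate 1 of iR2 was the highest for Cox6a2 (-4.24).

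In 7 members the receptor groups differed from each other by limma's test of the difference itself. All 7 were called in iR2 against iFGFR1 (8.64%, against 11.7% of all genes), which does not set the members apart. Against iFGFR1, iR2 differed by -1.83 for Atp5k, -0.86 for Atp5o, -1.04 for Cox7a2, -1.31 for Ndufa11, -1.25 for Ndufb5, -0.64 for Ndufv3 and -1.05 for Uqcrq. Against iFGFR2 it differed by -1.14 for Atp5k, -0.86 for Atp5o and -1.13 for Ndufb5. No cause was tested.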

How the results depend on the processing

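No paired analysis was possible because the replicate numbers follow accession order and pair nothing. Of 66 called differences of named members, 13 kept their call under every alternative, 25 under every omission of 1 array, and 40 lost it with the title number as covariate. Of 160 not called, 24 passed under some alternative. With the batch term for arrays of narrow spread, Atp5md in iR2 against Wnt1 (0.0098) and Atp5k in iR2 against iFGFR2 (0.12) changed sign.

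Counts of called members, with the range over omissions of 1 array, were 13 (5 to 16) in iFGFR1, 3 (2 to 14) in iFGFR2, 18 (5 to 22) in iR2, 22 (11 to 28) for the mean of 3 groups, 0 (0 to 1) in iFGFR2 against iFGFR1, 7 (5 to 9) in iR2 against iFGFR1, 3 (0 to 4) in iR2 against iFGFR2 and 20 (13 to 31) by F test. By direction the ranges were 4 to 13 higher and 1 to 5 lower in iFGFR1, 0 to 6 and 2 to 8 in iFGFR2, and 1 to 4 and 4 to 19 in iR2. Of all genes, 10.4% to 18.3% were called over these omissions in iFGFR1, 0.586% to 8.7% in iFGFR2 and 1.79% to 11.2% in iR2. The shares over omissions in the other comparisons were not counted. Only the arrays compared gave 8 in iFGFR1, with the share of all genes not counted.

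Quantile normalization gave 2 lower in iFGFR1, 1 higher in iFGFR2, 11 called (9 lower) in iR2 and 1 in iR2 against iFGFR2. Scaling to the same median absolute deviation gave 0 lower in iFGFR1, 28 called (1 higher, 27 lower) in iR2, 23 in iR2 against iFGFR1, 13 in iR2 against iFGFR2 and 34 by F test. Array weights gave 7 called (3 higher) in iFGFR2, 46 (9 higher, 37 lower) in iR2, 34 for the mean, 11 and 9 in iR2 against iFGFR1 and iFGFR2, and 43 by F test. Of all genes in iR2, 7.34% were called with quantile normalization, 16.7% with scaling and 30.8% with array weights. Of all genes in iFGFR2, 3.46% were called with quantile normalization, 4.68% with array weights and 3.83% with the title number. The batch term called 8.37% there, the same as without Wnt1 replicate 3. In iFGFR1, 7.01% of all genes were lower with quantile normalization and 5.89% with scaling. Under these alternatives the shares for the mean, between receptor groups and by F test were not counted. The title number gave 7 (1 higher, 6 lower) in iFGFR2, 1 (1 higher, 0 lower) in iR2, 10 for the mean, and 4 and 0 in iR2 against iFGFR1 and iFGFR2. The batch term gave 14 (6 higher, 8 lower) in iFGFR2, 0 (0 higher, 0 lower) in iR2, 11 for the mean, and 1 and 1 in iR2 against iFGFR1 and iFGFR2.

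Medians of a complex moved by more than the spread of its array means as follows. In iFGFR1, scaling gave 0.23 for complex III and -0.019 for IV, and complex IV was -0.27 with weights, -0.26 with the title number and -0.24 with the batch term (-0.25 to 0.0092 over omissions). In iFGFR2, scaling gave 0.40 for II, 0.060 for III and 0.060 for IV, and weights -0.079 for I and 0.063 for V; omissions gave -0.074 to 0.14 for I and -0.092 to 0.21 for V. In iR2, scaling gave -0.45, -0.034, -0.44, -0.80 and -0.27 for I to V, the title number 0.32 for II and -0.49 for III, and the batch term -0.019, -0.15 and -0.29 for II, III and IV. Complex IV in iR2 was also -0.25 with quantile normalization, -0.27 with weights, -0.53 with Ndufa4 and Ndufa4l2 in it, and -0.56 to -0.30 over omissions. The cause of these moves was not tested. The batch term cannot test it, because it compares iR2 with Wnt1 replicate 3 alone and so cannot tell narrow spread from group.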
